A study of Mus musculus with 12 samples.

Results

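Long intergenic H3K9me3 domains are described here in neural progenitors of Setdb1 knockout (KO) and wild-type (WT) mouse embryos. They were taken from the authors' table of regions that differ in H3K9me3 between the genotypes. Regions of 5000 bp or more on chromosomes 1 to 19 that the authors' annotation puts in the class of other intergenic regions were kept. Of 50654 listed regions 0.916% qualified, 373 of them listed as lower in KO and 91 as higher, and they hold 4.28% of the listed bases. Together they cover 3.72 Mb of mm10, with a median length of 6400 bp and a longest of 48400 bp, and 85 of them reach 10 kb. They are compared with 15719 regions of the same class and chromosomes that are 1000 to 1500 bp long, called short regions here, which cover 18.5 Mb. Without the limit to those chromosomes the table holds 656 long and 16717 short regions of the class.

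The cells were neurosphere cultures of the ganglionic eminence, the embryonic source of many cortical interneurons, from C57BL/6 embryos at E15.5. The KO is labelled Nestin-KO, and the series title names the methyltransferase SETDB1. The labels name neither the allele nor a Cre line, and call the other genotype WT. Each mark, H3K9me3 and H3K27ac, was profiled by native ChIP-seq from 3 KO and 3 WT animals, with 100000 nuclei per library. The first number of the titles, whose meaning the labels do not give, is largely confounded with genotype for H3K9me3: one covers only KO, another only WT and the remaining one a library of each. The listed values are not tied to animals, so no within-number value could be had. Sex was not balanced for H3K9me3 (KO 3 males, WT 1 male and 2 females), so it cannot be fully told apart from genotype. For H3K27ac each genotype had 1 female and 2 males. SETDB1 itself is not measured by these libraries.

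H3K9me3 is a mark of silenced chromatin. SETDB1 is one of the enzymes that place it, and is brought to many of its targets by KAP1 (TRIM28) together with KRAB zinc finger proteins, which bind DNA repeats. The genes of those zinc finger proteins lie in clusters of tandem copies that themselves carry H3K9me3 in many cell types. Other tandem families, such as vomeronasal receptors, which detect pheromones, and major urinary proteins, which carry them, lie in similar arrays.

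The regions were selected on their H3K9me3 values: the authors listed stretches that differ between KO and WT, and length and direction come from the same 6 libraries. The H3K9me3 values below are therefore a description, and the limma counts among them support nothing. H3K27ac came from other libraries and played no part in the choice.

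A small part of the domains holds annotated promoters, some of which are near copies of each other. RefSeq windows of 300 bases (250 before and 50 after a start, GRCm38.p6, the assembly of mm10) lay wholly inside 34 members, with 39 windows of 33 genes. The first set is shown because 3 genes in 1 array on chromosome 12, whose members were lower in KO, have nearly the same promoter. Gm9241 is at chr12:18735571-18735870, Gm40847 at chr12:18870250-18870549 and Gm40853 at chr12:19973476-19973775, all on the plus strand. Capitals mark CG, the dinucleotide at which DNA is methylated.
Gm9241: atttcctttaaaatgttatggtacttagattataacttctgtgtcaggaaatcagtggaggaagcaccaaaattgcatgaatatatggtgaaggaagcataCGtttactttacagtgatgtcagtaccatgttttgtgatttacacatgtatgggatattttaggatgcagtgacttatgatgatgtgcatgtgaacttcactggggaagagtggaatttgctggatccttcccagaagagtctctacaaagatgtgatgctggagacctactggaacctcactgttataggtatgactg
Gm40847: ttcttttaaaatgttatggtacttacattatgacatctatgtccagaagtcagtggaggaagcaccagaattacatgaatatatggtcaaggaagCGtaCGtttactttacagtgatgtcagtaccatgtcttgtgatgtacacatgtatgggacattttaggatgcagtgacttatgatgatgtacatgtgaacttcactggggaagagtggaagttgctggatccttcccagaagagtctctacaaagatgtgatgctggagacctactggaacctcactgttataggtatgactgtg
Gm40853: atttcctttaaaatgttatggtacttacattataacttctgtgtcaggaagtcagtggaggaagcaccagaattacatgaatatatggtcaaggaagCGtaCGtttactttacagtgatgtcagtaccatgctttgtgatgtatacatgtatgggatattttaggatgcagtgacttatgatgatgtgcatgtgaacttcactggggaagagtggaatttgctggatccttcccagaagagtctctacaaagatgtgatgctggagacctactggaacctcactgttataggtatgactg
Gm9241 and Gm40853 were 97% identical, with 9 differences when aligned end to end, although they start more than 1 Mb apart. Gm40847 was 94.7% identical to Gm40853. The second set comes from chromosome 14, where members were higher in KO. Gm5798 is at chr14:41348316-41348615 and Gm8126 at chr14:43258371-43258670, both on the plus strand, in separate arrays, and their windows were 86.8% identical.
Gm5798: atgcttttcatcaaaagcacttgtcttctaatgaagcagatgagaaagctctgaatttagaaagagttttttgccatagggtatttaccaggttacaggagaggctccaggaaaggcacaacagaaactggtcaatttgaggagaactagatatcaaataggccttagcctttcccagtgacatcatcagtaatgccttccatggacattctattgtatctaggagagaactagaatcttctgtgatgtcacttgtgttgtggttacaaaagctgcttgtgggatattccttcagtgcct
Gm8126: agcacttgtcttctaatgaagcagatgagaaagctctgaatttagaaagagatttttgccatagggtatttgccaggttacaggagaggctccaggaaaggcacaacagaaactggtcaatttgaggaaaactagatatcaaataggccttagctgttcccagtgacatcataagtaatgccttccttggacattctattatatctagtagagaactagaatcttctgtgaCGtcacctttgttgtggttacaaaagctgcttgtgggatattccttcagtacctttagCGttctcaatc
The third is from a member of chromosome 13 that is among the 8 longest, LOC115488130 at chr13:74438937-74439236 on the minus strand.
LOC115488130: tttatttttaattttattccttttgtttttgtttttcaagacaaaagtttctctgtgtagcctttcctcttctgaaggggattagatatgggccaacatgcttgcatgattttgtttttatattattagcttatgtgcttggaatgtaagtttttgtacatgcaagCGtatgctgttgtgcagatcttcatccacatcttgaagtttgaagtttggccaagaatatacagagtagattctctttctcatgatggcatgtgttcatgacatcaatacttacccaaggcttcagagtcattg
The 6 windows hold 0 to 2 CG each. Over all 39 windows the median was 3 CG and 46% G or C, against 7 CG and 53% in 31396 autosomal windows, and 15.4% held 10 or more CG, against 44.0% of all. Between different genes, 6 of 528 pairs of windows reached 80% identity. Whether reads were shared between such copies was not tested, and the authors' handling of reads with several matches is not stated.

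Most long domains had less H3K9me3 in KO than in WT, and 85 of the 91 with more lay within 500 kb of another member. Of all listed regions 71.1% were called lower and 28.9% higher at the authors' adjusted p of 0.05, a rule that every member met by selection. Lower members made up 80.4% of the long regions and 65.9% of the short ones. The median log2 KO over WT was -1.06 in long regions, against -0.85 in short ones. It ran between -2.80 and 1.33 in long regions. A value of -1 or lower was reached by 256 long regions (55.2%), against 41.4% of short ones, and 1 or higher by 3 long regions (0.647%), against 7.43% of short ones. In a bulk ChIP, fewer cells with the mark and less mark per cell cannot be told apart.

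These directions depend on the scaling. When each listed value was divided by its median ratio over all listed regions, the log2 values of all regions shifted by a median of 0.79. Long regions then split into 307 lower and 157 higher (66.2% lower), with a median of -0.24, and 66 members turned from lower to higher. The short regions were then 54.1% lower. The listed regions were chosen because they differ, and 71.1% of them were called lower in KO. A median ratio over such regions takes away a shift that most of them share, whether or not that shift is real. Which scaling is right cannot be told from these regions. The genome outside the listed regions was not analysed here.

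**Figure D1:**
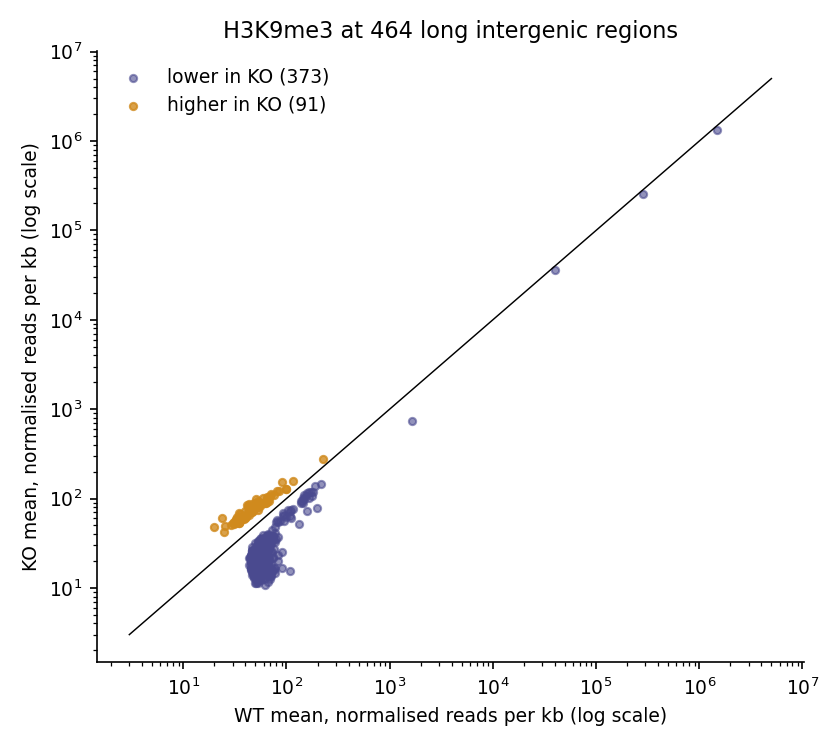
Mean H3K9me3 level of the members in KO (vertical axis) against WT (horizontal axis), in normalised reads per kb on log axes, each point 1 member, with the line of equal levels. The 373 lower and 91 higher members lie on opposite sides of that line by definition. Only regions that differ were listed, so a gap between them was set by that choice. In both genotypes 4 members stand far above the rest.

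Level per length is given as normalised reads per kb, which are not set against a background. The median member had 25.3 normalised reads per kb in KO and 53.9 in WT. The median short region had 23.3 per kb in KO and 39.7 in WT. At the lower members the medians of the 3 listed KO values were 15.6, 21.1 and 30.7 normalised reads per kb, against 50.7, 58.4 and 57.9 for the 3 WT values. At the higher members they were 70.9, 58.9 and 71.1 in KO, against 45.4, 42.2 and 44.1 in WT. Members higher in KO thus had a lower WT level than members lower in KO. Direction was set by these same values, so the split itself favours this order and nothing is read from it. Short regions had the same order, with a median WT level of 24.0 per kb at higher ones and 42.0 at lower ones. In the authors' deposited table the median enrichment at lower members was 0.95 in KO and 2.16 in WT, and at higher members 1.82 in KO and 0.92 in WT. Enrichment did not always follow the level per kb. A member in Snhg14 on chromosome 7 had 226.3 per kb in WT and an enrichment of 1.28. One in Ahnak2 on chromosome 12 had 62.2 per kb and 4.08.

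The KO values were less even than the WT values. The median coefficient of variation at lower members was 38.8% in KO and 11.7% in WT, and at higher members 13.9% in KO and 10.1% in WT. The third listed KO value stood above the other two at 293 of the 373 lower members, with a median ratio of 1.65 to their mean. At higher members it did so at 36 of 91, with a median ratio of 1.05. This was not particular to the members. Among short regions it did so at 8604 of 10353 lower ones (median ratio 2.27) and at 2749 of 5366 higher ones (1.16). The median coefficient of variation of the lower short regions was 59.7% in KO and 15.2% in WT. Which animal gave which listed value is not stated. Depth differs too, since 1 read was worth 2.55, 0.436 and 0.840 normalised reads in the listed KO values and 1.77, 0.820 and 0.725 in the WT values. The median member therefore held 55.5, 415.5 and 270.0 reads in KO and 182.0, 451.5 and 512.0 in WT, while the median short region held only 8, 56 and 51 in KO and 24, 56 and 56 in WT. The part of depth in the spread was not tested.

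**Figure D2:**
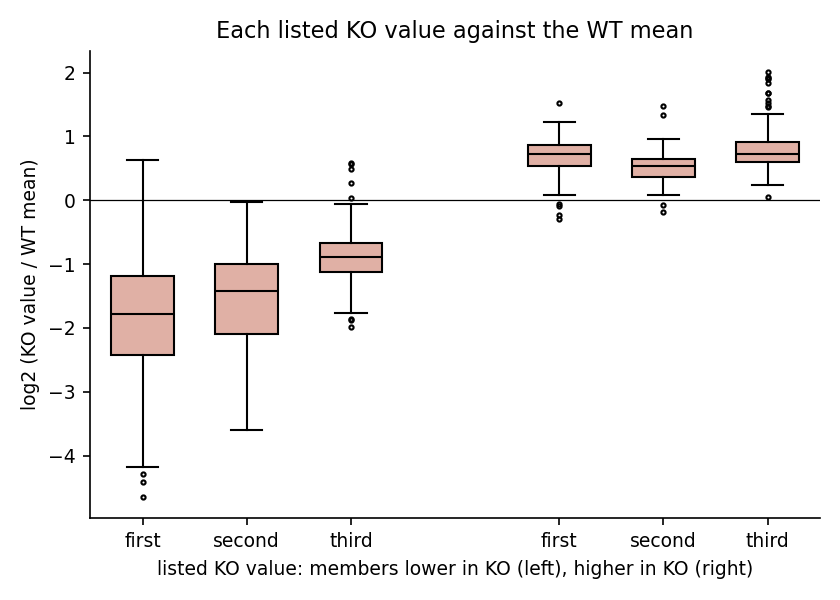
Box plots of log2 of each listed KO value over the WT mean, for members lower in KO (left) and higher in KO (right). Boxes give the median and quartiles, whiskers reach 1.5 times the box height, and points lie beyond. At lower members the third KO value lies nearest to the WT mean, and at higher members the 3 values lie close together.

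Groups that do not overlap were frequent. All 3 KO values lay below all 3 WT values at 341 members (73.5%), against 54.2% of all listed regions. All 3 KO values lay above all WT values at 81 members (17.5%), against 20.2% of all. The remaining 42 members had overlapping values. limma, fitted to log2(value + 1) over the whole table, called 287 members lower (background 14.9%) and 13 higher (background 1.24%) at a Benjamini-Hochberg adjusted p of 0.05. Nothing is read from this, because the rule used the contrast. The limma calls also depended on which listed value was left out. Without the third KO value they rose to 337 lower and 45 higher, and without any other single value there were 0. At an unadjusted p of 0.05 the same fits called 329 to 347 lower and 40 to 63 higher. The share of all listed regions called in these fits is not given, so the counts say nothing particular to the members.

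Along the length classes the share lower in KO was 65.9% at 1000 to 1500 bp, 72.0% at 1600 to 2500 bp, 80.5% at 2600 to 4900 bp, 80.7% at 5000 to 9900 bp and 78.8% at 10000 bp or more. The median WT level was higher with each class, at 39.7, 42.7, 47.8, 52.5 and 65.0 normalised reads per kb. The class just under 5000 bp thus had nearly the same share as the members. The 4 members just inside the limit, all 5000 bp long, had a log2 KO over WT of -0.97 near Cep170, -1.33 near Top1, 0.88 near Mup17 and 0.62 near Mup18. The 4 regions just outside, all 4900 bp long, had -0.76, -1.83, -1.22 and -0.97.

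**Figure D3:**
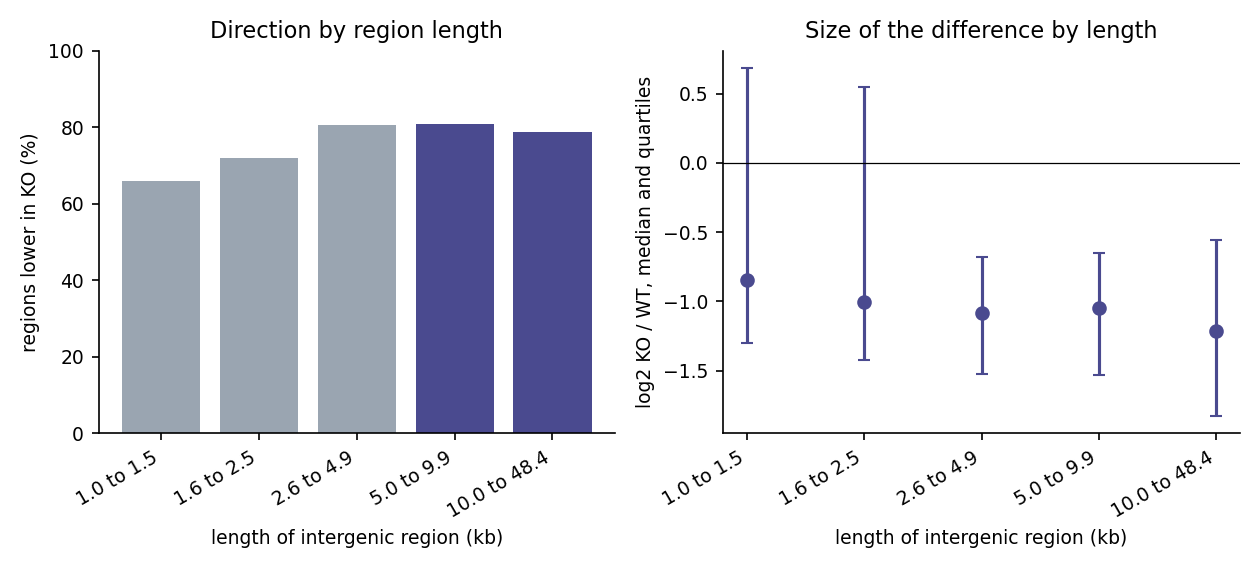
Share of intergenic regions lower in KO (left, bars from 0) and median log2 KO over WT with quartiles (right) in 5 length classes, the last 2 of which are the members. The upper quartile lies above 0 in the 2 shortest classes and below 0 in the others.

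Members were gathered in arrays. Joined where the next member lay within 500 kb, they formed 208 groups, of which 160 held a single member and 48 held the others (65.5% of members). Of the single members 154 were lower in KO, with a median log2 of -1.32, and 6 were higher. Of the 48 groups with several members 36 were all lower, 9 all higher and 3 mixed, and 85 of the 91 higher members lay in such groups. Chromosome 12 held 72 members and chromosome 13 held 58, mostly lower. Chromosome 14 went the other way, with 8 members lower and 31 higher, and chromosome 7 had 13 lower and 17 higher. A listed region lay within 1 kb of 270 members (58.2%), against 19.2% of short regions. It was listed in the same direction in 98.9% of those cases for members and 89.8% for short regions. Neighbours this close are not independent.

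The array with the most members ran over chr12:17243101-21059600, with 44 members, all lower. Summed over its members it had 23.5, 27.7 and 34.0 normalised reads per kb in KO, against 56.3, 75.7 and 69.5 in WT, a log2 of -1.24. The groups did not overlap in the sums, nor at 43 of the 44 members. After rescaling, the median of these members was -0.15, so the array stood close to the median of all listed regions. It held 4 of the 8 longest members. The longest of all, chr12:20994201-21042600 (48400 bp, 68768 bp from Asap2, which encodes an ARF GTPase-activating protein), overlapped Gm30124 and the pseudogene Gm5977. It had 608.82, 944.78 and 1592.67 normalised reads in KO, against 2653.73, 3830.24 and 3336.41 in WT, a log2 of -1.64. A stretch over the gene Gm9222, chr12:17883501-17919000, had 379.56, 643.08 and 1107.72 in KO, against 2136.10, 3530.87 and 3075.41 in WT. The gene LOC108167368 overlapped a milder one, chr12:20619101-20651900, at 728.55, 942.60 and 1028.72 in KO, against 1710.66, 2168.55 and 1793.63 in WT. In all 3 the first KO value was the lowest and no KO value reached a WT value. The members that carry the printed promoters of Gm9241, Gm40847 and Gm40853 had log2 values of -1.14, -1.07 and -0.92.

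The large arrays with the most negative values held zinc finger genes. On chromosome 10, 9 members over chr10:81694801-82443400 near Zfp433 had 7.66, 8.86 and 25.3 normalised reads per kb in KO, against 57.3, 67.8 and 68.3 in WT (log2 of the sums -2.21). On chromosome 17, 11 members near Zfp97 had 7.07, 11.2 and 27.3 per kb in KO, against 55.2, 72.9 and 71.2 in WT (-2.13). On chromosome 5, 10 members near AB010352 and Zfp932 had 9.55, 10.3 and 29.8 per kb in KO, against 52.9, 67.0 and 61.7 in WT (-1.87). In each of these arrays the third KO value was well above the others and still below the lowest WT value. At every member of these arrays the KO values lay below the WT values, and their medians stayed below 0 after rescaling, at -1.56, -1.42 and -1.10.

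The most negative single members were taken from those without overlap of the groups. First came chr5:104579301-104589400 in Zfp33b, a zinc finger gene, with 78.97, 91.12 and 304.25 normalised reads in KO, against 657.67, 1316.39 and 1326.73 in WT (log2 -2.80). The next, in Ahnak2 on chromosome 12, had 25.47, 109.43 and 125.23 in KO, against 343.90, 482.27 and 665.54 in WT (-2.52). A stretch over Zfp433 had 76.42, 105.94 and 337.02 in KO, against 900.53, 1035.89 and 1009.19 in WT (-2.50). The other 5 of the 8 overlapped BC024063, 3110053B16Rik, 2210016F16Rik, Gm5165 and AB010352, at -2.49 to -2.34. Of the 8, Zfp33b and Zfp433 are zinc finger genes of the list.

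Not all zinc finger arrays differed as much. The array over chr4:145410601-147748300, with 22 members near Zfp982 and neighbours, had the highest WT level of the large arrays. Its 3 KO values were 125.2, 54.4 and 67.3 normalised reads per kb, against 134.9, 111.7 and 134.8 in WT. The first KO value lay inside the WT range, the log2 of the sums was -0.63, and the KO values lay below the WT values at only 8 of its 22 members. After rescaling, the median of its members was 0.39, so the direction there depends on the scaling. On chromosome 13, 22 members over chr13:65245101-66861000 near Zfp369 and Zfp640 had 29.5, 28.0 and 35.5 per kb in KO, against 54.7, 65.7 and 68.0 in WT (-1.02). After rescaling their median was -0.14.

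Counted by a list of gene symbols, 60 members lay within 50 kb of a zinc finger gene (52 genes of 452). All 60 were lower in KO, with a median log2 of -1.53, but after rescaling 41 were lower and 19 higher. Of 515 short regions near such genes 385 were lower and 130 higher, with a median of -0.79. Near chemosensory receptor genes the long and the short regions leaned in different directions. Of the 37 members within 50 kb of an olfactory or vomeronasal gene or pseudogene 33 were lower and 4 higher in KO (median -0.89). Of the 2019 short regions near such genes 523 were lower and 1496 higher (median 0.71). After rescaling the long ones were 21 lower and 16 higher, and the short ones 230 lower and 1789 higher. The long ones near chemosensory genes lay in few places, 16 of them in the array of chromosome 13 near Zfp369, and 8 of the 37 also lay within 50 kb of a listed zinc finger gene. Without those 8 the long ones were 25 lower and 4 higher. The 25 still hold members of the chromosome 13 array, where all 16 were lower. Regions of an array are not independent, and no test was made.

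The other lists held few members. Within 50 kb lay 1 member for clustered protocadherins (Pcdha1 to Pcdha4), 2 for other cadherins, 1 for contactins and related adhesion genes (Lrrc3c) and 2 for cytochromes P450, all lower in KO. For immune receptor clusters, serpins, keratin-associated proteins and defensins there were 0 members, against 64, 85, 6 and 96 short regions. For the caudal eminence, medial eminence, pan-GABAergic and excitatory lists there were also 0 members, against 6, 6, 10 and 9 short regions. These are 0.0382%, 0.0382%, 0.0636% and 0.0573% of the short regions, shares at which 0 members is no result about the members.

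The arrays higher in KO belonged to other families. Rescaling moved the log2 values up, by a median of 0.79 over all listed regions. That the medians of these arrays stayed above 0 was therefore fixed beforehand, and nothing is read from it. The largest of these arrays lay on chromosome 14 around Gm8126, with 21 of 22 members higher. It had 85.1, 78.9 and 81.3 normalised reads per kb in KO, against 54.8, 48.8 and 53.7 in WT, a log2 of the sums of 0.64. A second array of the same chromosome around Gm7945 had 62.0, 55.6 and 59.4 per kb in KO, against 40.1, 33.8 and 37.6 in WT (0.67), with all 10 members higher. In both arrays the 3 values of a genotype lay close together and the genotypes did not overlap at any higher member. The domain that holds the printed promoter of Gm8126, chr14:43250201-43279900, is the fifth longest of all, with 3484.81, 3340.07 and 3266.86 normalised reads in KO, against 2242.47, 1902.82 and 2198.17 in WT.

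On chromosome 4, 7 of 8 members of the array of major urinary protein genes and pseudogenes (Mup) were higher, with 62.1, 54.0 and 60.4 per kb in KO, against 38.3, 39.6 and 41.3 in WT (0.57). On chromosome 13, 8 members near Prl2c2 and Prl2c3, which encode prolactin-family hormones, had 89.5, 61.8 and 79.4 per kb in KO, against 53.1, 43.1 and 47.8 in WT (0.68). On chromosome 8, 9 members near Gm40469 had 85.5, 73.9 and 112.0 per kb in KO, against 59.4, 63.2 and 60.1 in WT (0.57). In all 3 arrays the summed KO values lay above the WT values. The families of this and the next paragraph were picked after their values were seen.

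In the array on chromosome 5 near Gm21149 and Speer4d 1 listed value decided the difference. Its 10 members had 61.2, 56.6 and 173.6 normalised reads per kb in KO, against 52.7, 52.5 and 53.3 in WT. The third KO value stood far above the other 5, which lay between 52.5 and 61.2. The log2 of the sums was 0.88 with it and 0.16 without it, and only 5 of its 10 members had all KO values above all WT values. Without the same value the chromosome 8 array was at 0.39, while the Gm8126, Gm7945, Prl2c2 and Mup arrays stayed at 0.65, 0.66, 0.66 and 0.55.

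The most positive single members were likewise taken from those without overlap. In the immunoglobulin heavy chain locus, chr12:113716201-113721300 over the V segment Ighv2-6 had 234.36, 336.58 and 347.95 normalised reads in KO, against 108.13, 131.23 and 125.42 in WT (log2 1.33). Its neighbour over Ighv5-12 had 229.26, 284.70 and 313.49 in KO, against 145.36, 87.76 and 105.12 in WT (1.29). Near Gvin1, an interferon-inducible GTPase gene on chromosome 7, a member had 440.70, 401.98 and 456.37 in KO, against 267.68, 173.06 and 208.80 in WT (1.00). The V segments are pieces of antibody genes. The other 5 of the 8 most positive lay near Speer4d, Gm21149, LOC115486427, Gvin1 and Gm9271, at 0.89 to 0.99.

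**Figure D4:**
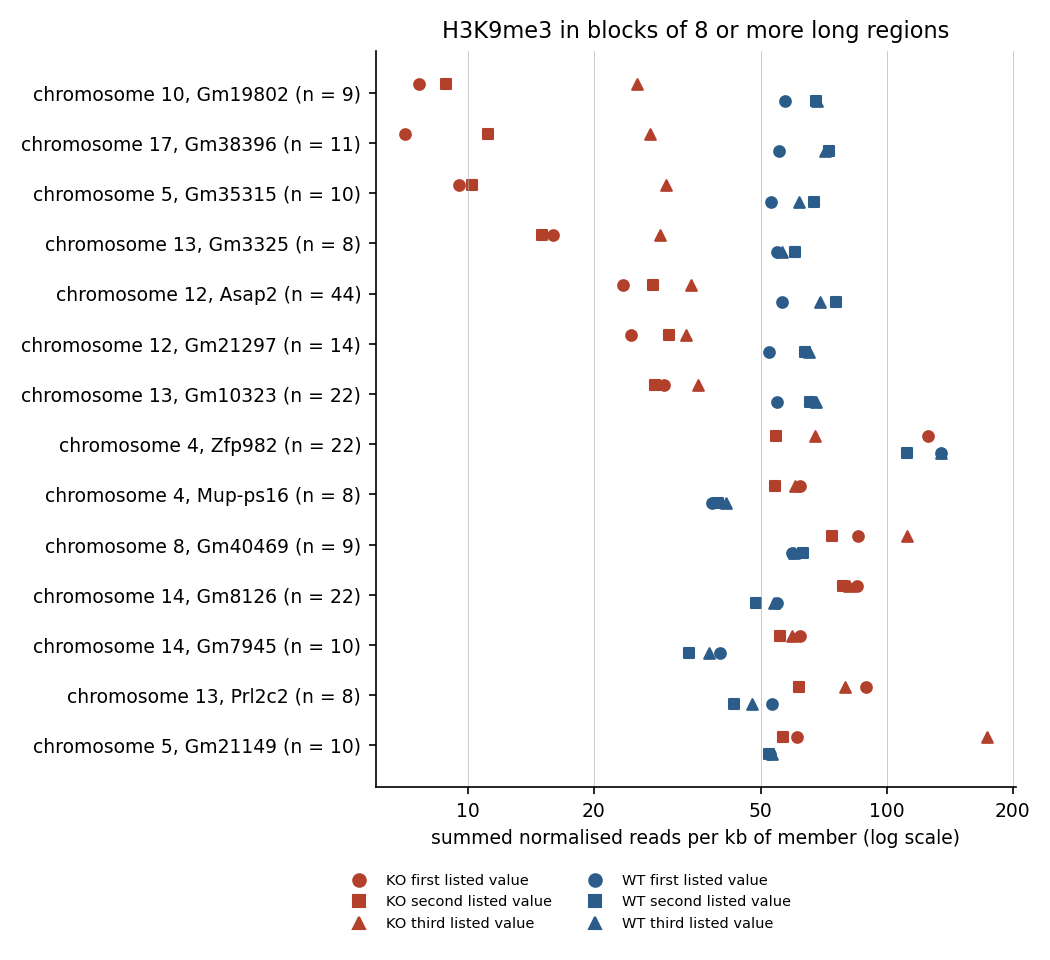
H3K9me3 in the 14 arrays of 8 or more members, summed over members, in normalised reads per kb on a log axis. Each row is 1 array, named by chromosome and the coding gene nearest to its longest member, with the 3 KO values above the 3 WT values. WT values of the 7 arrays with the most negative log2 lie between 52.4 and 75.7, and the third KO value stands apart in the Gm21149 array. After rescaling the median of the Zfp982 array is above 0, at 0.39.

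Level singled out a few members. The 3 highest per kb were chr2:98661301-98668300, chr14:19414801-19420500 and chr9:2999101-3039600, the last of which overlaps the microRNA gene Mir101c. They took 97.2% to 99.3% of all member reads in each library. The first had 15965140, 7486549 and 4559283 normalised reads in KO, against 14888555, 6576673 and 9629404 in WT, so the groups overlapped, and the log2 values of the 3 were -0.15, -0.17 and -0.13. Next came chr1:24610701-24617100 over the pseudogenes Gm10222 and Gm10925, with 3219.89, 6719.39 and 4185.48 in KO, against 4825.29, 7616.18 and 18998.38 in WT. Its log2 of -1.15 rests on the third WT value. A member in Snhg14, the host gene of a cluster of small nucleolar RNAs at the Snrpn locus, had 1342.47, 2120.19 and 1654.02 in KO, against 1281.66, 1476.32 and 1451.43 in WT (0.28, overlapping). The last of the 6, near Gm32719 in the large chromosome 12 array, had a log2 of -0.57.

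Although the authors' annotation calls these regions intergenic, 237 (51.1%) overlapped a RefSeq gene of any kind. Of these 126 touched a protein-coding gene, 88 a pseudogene and 49 a long noncoding RNA. The midpoint lay in a gene for 39.9% of members and 18.9% of short regions. The median distance to a coding gene was 12875 bp for members and 29087 bp for short regions. A domain of 22.7 kb on chromosome 1, chr1:171063101-171085800, covered an array of 15 tRNA genes and the microRNA gene Mir6546. It had 799.88, 1035.46 and 1695.21 normalised reads in KO, against 2132.56, 3402.10 and 3423.41 in WT, a log2 of -1.34.

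H3K27ac marks active promoters and enhancers. Of the members 411 (88.6%) had no H3K27ac peak in any of the 6 libraries, 53 had one in at least 1 library and 5 had one in all 6. Per library 2.59% to 7.54% of members had a peak, against 0.121% to 0.617% of the far shorter short regions. Of the 53 members 42 were lower and 11 higher in H3K9me3. The libraries held 25880, 41705 and 11252 peaks in KO and 31354, 36516 and 12111 in WT, which bears on every count below.

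In KO libraries 20, 35 and 18 members had a peak, against 12, 17 and 18 in WT libraries. The means were 24.3 ± 9.29 in KO and 15.7 ± 3.21 in WT (SD, n = 3 each). The difference was 8.67, in a test that allows no p below 0.1 (exact permutation test over libraries, two-sided, p = 0.2). It was 8 and 9 within the lower and the higher first number of the titles, and 3.33 without KO replicate 2, the library with the most peaks. Peaks per Mb of member were 15.9, 23.7 and 15.9 in KO and 14.8, 14.5 and 15.3 in WT, so the lowest KO library lay just above the highest WT library. The means were 18.5 ± 4.50 in KO and 14.9 ± 0.411 in WT (exact permutation test, p = 0.1, the smallest possible with n = 3 each). Without KO replicate 2 the difference was 0.986 in place of 3.58 peaks per Mb, and without the 4 highest members the p was 0.4 (exact permutation test). Of each library's peaks 0.321% ± 0.176 in KO and 0.265% ± 0.179 in WT lay in a member (exact permutation test, p = 0.5, n = 3 each). A difference in H3K27ac at the members between the genotypes was not shown by 3 libraries each.

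Long regions held more H3K27ac peaks per Mb than short ones in every library. The means over the 6 libraries were 16.7 ± 3.47 in long regions and 2.49 ± 1.87 in short ones. The difference of 14.2 peaks per Mb had the same sign in 6 of 6 libraries (exact sign-change permutation test, two-sided, p = 0.031, the smallest possible with 6). Most of it came from the 4 members with a WT mean above 10000 normalised reads. Without them long regions had 6.88 ± 3.71 peaks per Mb, a difference of 4.39, again in 6 of 6 libraries (exact permutation test, p = 0.031). In some libraries much of the rest lay at 2 loci, the 3 members near Gm40363 and the member in Snhg14. In WT replicate 1 these held 6, 2, 3 and 3 of the 19 peaks left, and in WT replicate 3 they held 1, 0, 0 and 3 of 18. The difference without these loci was not tested. With the 10000 strongest peaks of each library the difference was 3.19. The surroundings differed in the same direction: within 50 kb, outside any listed region, there were 14.4 ± 5.84 peaks per Mb around long regions and 10.3 ± 4.80 around short ones (difference 4.00, 6 of 6, exact permutation test, p = 0.031). The part of the shorter distance to genes, given above, in these differences was not tested.

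**Figure D5:**
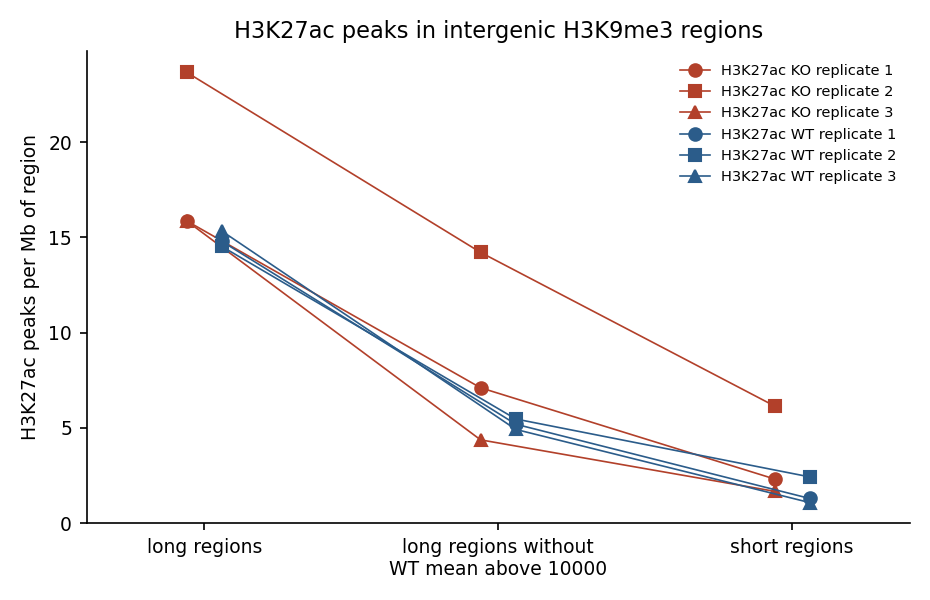
H3K27ac peaks per Mb in long regions, in long regions without the 4 of highest WT level and in short regions, each line 1 of the 6 libraries (KO and WT). All 6 lines fall from left to right, and KO replicate 2 lies above the other 5 at each place.

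Members with H3K27ac in all 6 libraries were the 3 of highest level, the one in Snhg14 and one near Tmem267 on chromosome 13. On chromosome 9 the 40.5 kb domain over Mir101c held 21, 30 and 33 peaks in KO, against 25, 27 and 30 in WT. In Snhg14 each of the 6 libraries had 3. Near Gm40363 on chromosome 6, 2 members of an array of 3 had peaks in 5 libraries, with 6, 4 and 0 in KO, against 6, 4 and 1 in WT at the larger one. There H3K9me3 was 71.7, 83.2 and 156.8 normalised reads per kb over the array in KO, against 131.0, 172.2 and 148.6 in WT, with overlapping values. At these members peaks stood in both genotypes.

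A peak in KO libraries only was seen at 22 members, 12 of them in KO replicate 2 alone, and a peak in WT libraries only at 10. These counts were not made for short regions. Short regions with a peak numbered 39, 97 and 30 in KO libraries, against 24, 44 and 19 in WT libraries. A lean towards KO was thus not particular to the members. One member, chr6:58817201-58825400 near Herc3, had peaks in all 3 KO libraries (1, 4 and 1) and in 0 of the WT libraries. It was chosen after its values were seen. Its H3K9me3 was 119.73, 134.72 and 204.23 normalised reads in KO, against 389.99, 416.65 and 455.29 in WT, a log2 of -1.46. The tRNA domain of chromosome 1 had 1, 2 and 1 peaks in KO, against 0, 1 and 0 in WT.

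The labelled cell type was checked with H3K27ac peaks within 1 kb of an end of each marker gene. All 8 neural progenitor markers had a peak in at least 1 library, but only Fabp7, a radial glia gene, in all 6. Vim had one in 3 KO and 2 WT libraries, Sox2 and Hes1 in 2 and 2, and Hes5 in 1 and 1. Nes had one in 0 KO and 2 WT libraries, and Pax6 and Notch1 in 1 KO and 0 WT libraries. The share of all genes with such a peak is not given. The ganglionic eminence markers Dlx1, Dlx2, Gsx2, Nkx2-1, Gad1 and Gad2 had none in any library. Of the astrocyte and oligodendrocyte list, Olig1, an oligodendrocyte lineage gene, had one in all 6. Olig2 had one in 2 KO and 2 WT libraries, Gfap in 2 KO and 0 WT libraries, and Aqp4 and Mbp in none. The 4 cortical excitatory, 4 microglia and blood and 3 vascular markers had none.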

How the data were processed

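Native ChIP-seq libraries of H3K9me3 and H3K27ac, 3 animals per genotype and mark, were processed against mm10. The submitters' processing notes name Bowtie2 2.3.4.3 and, without a version, MACS2. The authors deposited a single H3K9me3 table, which holds regions that differ between the genotypes. Its 3 values per genotype are normalised reads, per the file headers, and their order is not tied to animals. The group means in the authors' table are a normalised signal, their enrichment is a ratio, their fold changes are log2 of KO over WT, and their p-values are per region, all per the file headers. For H3K27ac the authors deposited MACS2 peaks with -log10 q values and a fold enrichment, used to filter and rank peaks within a library. No source used here names the caller of the H3K9me3 regions.

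Log2 KO over WT was computed from the means of the listed values. Whole reads were recovered from the smallest step of each listed value, with 100% of low values whole within 0.1. Listed regions held 11013630, 36400255 and 13650389 reads in KO and 15930108, 19610760 and 28440810 in WT. H3K27ac peak lists give no read totals, so their depth is unknown. Counts of calls were made with limma 3.58.1 under R 4.3.3, on log2(value + 1), with trend, Benjamini-Hochberg adjusted over 50654 regions. It was tested on simulated reads with equal spread in both genotypes and few changed regions. The listed data differ in both, so that test does not show how limma performs on them. Peaks overlapping a region by 1 bp were counted. Exact permutation tests used the libraries as units (scipy 1.17.1). Gene positions and promoter sequences came from RefSeq (GRCm38.p6). Per the series design, each library is from another animal.

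The members and the lists were chosen with earlier results of these data known. Regions named are the 8 longest, the 8 most negative and 8 most positive without overlap, the 6 of highest WT level per kb, up to 8 with H3K27ac in 3 or more libraries, and the 4 just inside and just outside the length limit. Alternatives covered length limits, scaling, filters, pseudocounts, peak strength, overlap, flank width and left-out libraries. limma-voom on recovered reads, leaving out the 4 members of highest WT level and leaving out the third KO value in arrays were chosen after seeing the data. One marker gene is not reported here.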

Additional observations from a re-analysis of the deposited data

How the results depend on the processing

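The count of members lower in KO was 679 with a length limit of 4000 bp and 67 with 10000 bp, and that of members higher was 149 and 18. Rescaling to the median ratio gave 157 higher, 66.2% lower and a median log2 of -0.24. The limma counts moved most. They are given without the share of all listed regions called in the same fits, so they say nothing particular to the members. Rescaling gave 108 lower and 88 higher, a pseudocount of 5 gave 33 higher, limma-voom on recovered reads 72 higher, and limma without a mean-variance trend 0 lower and 0 higher (325 and 31 at an unadjusted p of 0.05). With 1 listed value left out the limma counts ranged from 0 to 337 lower and from 0 to 45 higher (329 to 347 and 40 to 63 at an unadjusted p of 0.05). The log2 ratio of the long to the short WT level per kb was 0.44, and 0.71 with members of 10000 bp or more. The share of H3K27ac peaks in members, KO minus WT, was 0.056 percentage points and turned negative without KO replicate 3 (-0.045) and without WT replicate 2 (-0.0019), within a range of -0.045 to 0.159 over left-out libraries. With 1 library left out the long-against-short difference in H3K27ac peaks per Mb ranged from 13.5 to 14.6, and that of the flanks from 3.76 to 4.27. Each then had an exact permutation p of 0.0625, the smallest that 5 libraries allow. With the 10 kb and 200 kb flanks the difference was 9.12 and 1.75. Of the 179 alternative values computed, 140 kept their direction and side of the threshold, or moved by less than a fixed limit or the spread. Some of these could not have moved. The H3K27ac tests of KO against WT allow no p below 0.1, so they could change direction but not side. The ratio of WT levels does not use the KO values that were left out. The 140 is therefore no measure of how stable the results are. The cause of the changes was not tested.

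For H3K9me3 no paired analysis was possible because the listed values are not tied to animals. For H3K27ac the replicate numbers are in accession order, so the first number of the titles was used as a block, an alternative chosen after seeing the data. With genotype permuted within this block the KO minus WT differences are as given (0.056 percentage points, 8.67 members and 3.58 peaks per Mb), with exact permutation p of 0.5, 0.333 and 0.167. The smallest that its 12 permutations allow is 0.167, so this block could reach no call. The first listed KO value had a median of 55.5 reads per member and 8 per short region, the fewest of the 6 listed values.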
